A study of Mus musculus with 8 samples.

Results

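The core circadian clock was measured through 10 genes in whole mouse hearts at 2 postnatal ages. The members were Arntl (the gene of BMAL1), Clock, Per1, Per2, Per3, Cry1, Cry2, Nr1d1 and Nr1d2 (the genes of REV-ERB alpha and beta) and Dbp. They were taken by name from the expression table of each heart, and each of the 10 matched an annotated locus, out of 39614 annotated loci and 80155 loci in all. The samples were 8 hearts of male Hsd:ICR(CD-1) mice, an outbred stock, with 4 hearts from postnatal day 1 (P1) and 4 from postnatal day 7 (P7). The animals carried no transgene or treatment in the labels, each library came from 1 heart, and the atrial appendages had been cut away before freezing, so that the RNA came mainly from the ventricles with all their cell types. Ribosomal RNA was depleted from total RNA before library preparation. The unit was FPKM, fragments per kilobase of transcript scaled to the mapped fragments of the library. The hour at which each heart was taken is not in the labels, so a difference in age and a difference in sampling hour cannot be told apart in these 2 groups.

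The clock is a feedback loop of transcription. BMAL1 and CLOCK bind together to E-box sequences and activate the Per and Cry genes, whose proteins return to the nucleus and repress that activation. In a second loop the REV-ERB receptors repress Arntl through RORE sequences, where the ROR receptors activate it, and DBP, itself an E-box target, activates genes through D-box sequences. In adult heart the transcripts of this loop cycle over the day, with Arntl in opposite phase to Dbp and the REV-ERB genes.

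The promoters of Arntl and Nr1d1 are shown because these were the 2 members that passed the test of age. Each is the 250 bases before a gene start in the RefSeq table for GRCm38.p6, written 5′ to 3′ on the strand of the gene, with a match to a searched motif in capitals. The first lies at chr7:113207215-113207464 on the plus strand and the second at chr11:98775378-98775627 on the minus strand.
Arntl promoter: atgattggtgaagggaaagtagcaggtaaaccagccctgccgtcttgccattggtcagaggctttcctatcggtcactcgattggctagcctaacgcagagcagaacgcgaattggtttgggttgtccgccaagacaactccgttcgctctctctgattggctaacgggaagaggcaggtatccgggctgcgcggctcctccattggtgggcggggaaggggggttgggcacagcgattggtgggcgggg
Nr1d1 promoter: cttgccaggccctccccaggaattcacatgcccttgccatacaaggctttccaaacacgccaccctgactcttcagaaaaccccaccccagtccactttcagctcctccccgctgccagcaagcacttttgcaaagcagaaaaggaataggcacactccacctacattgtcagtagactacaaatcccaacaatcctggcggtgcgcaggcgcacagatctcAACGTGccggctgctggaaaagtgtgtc
The Arntl stretch held none of the motifs searched, and the Nr1d1 stretch held the E-box variant CACGTT, read on the opposite strand as AACGTG, at base -28, counting back from -1 at the base before the start. The other matches were in Arntl, in the reading from its second listed start, and in Cry1, Per1, Cry2 and Per3, each shown in a 30-base window with the motif in capitals. The RORE core TAGGTCA began at base 31 of the Arntl transcript from its second start, at chr7:113207529-113207558 on the plus strand. The E-box CACGTG began at base -60 of Cry1, at chr10:85185097-85185126 on the minus strand, and at base -166 of Per1, at chr11:69098771-69098800 on the plus strand. The E-box variant began at base -166 of Cry2, at chr2:92434218-92434247 on the minus strand. The D-box TTANNTAA began at bases -205 and -158 of Per3, at chr4:151044852-151044881 and chr4:151044805-151044834 on the minus strand.
Arntl RORE core: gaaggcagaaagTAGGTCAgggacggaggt
Cry1 E-box: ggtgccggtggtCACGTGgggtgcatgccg
Per1 E-box: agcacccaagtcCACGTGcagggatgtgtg
Cry2 E-box variant: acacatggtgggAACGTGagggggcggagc
Per3 D-box, distal: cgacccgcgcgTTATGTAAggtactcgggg
Per3 D-box, proximal: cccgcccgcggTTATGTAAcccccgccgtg
Cry1 also held the E-box variant at base -79. Both strands were searched over windows reaching from 250 bases before to 50 bases after each start, and no searched motif overlapped another. Of 32851 RefSeq promoters, 7.15% held CACGTG, 4.68% CACGTT, 6% TTANNTAA, 2.61% TAGGTCA, 3.98% the RORE variant TGGGTCA and 1.79% the cyclic AMP response element TGACGTCA. No promoter sequence for Per2 was used here. No searched motif was in the windows of Clock, Nr1d2 and Dbp, which says only that these letters are not in those windows.

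The hearts differed in ways that touch the members. Between 20269 and 22292 loci reached 1 FPKM in 7 hearts, and 28662 did so in P1 replicate 3. The median-ratio factor, the median over annotated loci of the FPKM in a heart relative to the geometric mean of all hearts, ran from 0.801 to 1.16 in P1 and from 0.942 to 1.27 in P7, and it was lowest in P1 replicate 3. A single fragment on a locus of 1 kb was worth 0.0524 to 0.0854 FPKM, read from the lowest values of short loci, which gave roughly 56.1 to 262 fragments per heart for Arntl, the thinnest member, and 1871 to 3061 for Clock, the thickest. Markers of heart muscle defined the tissue in each heart, with the summed FPKM of 6 cardiomyocyte genes at 17726 to 32163 in P1 and 21706 to 34546 in P7. Among markers of other cells, 3 of 5 fibroblast genes (Col1a1, Dcn and Lum), 1 of 5 endothelial (Cdh5), 1 of 4 smooth muscle and pericyte (Pdgfrb) and 1 of 3 tested nerve genes (Dbh) were higher in P7 by the test given next, and 0 of 5 leukocyte and 0 of 3 erythroid genes passed it. That test called 7.74% of the tested annotated loci higher in P7. The summed fibroblast markers were 417 to 762 FPKM in P1 and 985 to 1225 in P7. In whole tissue a change in the number of cells of a type and a change in RNA per cell cannot be told apart, and the part of these cell types in the values of the clock genes was not tested.

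Of the 10 clock genes, 2 were higher in P7 and 0 were lower. A gene was called when limma gave an adjusted p under 0.05 on log2(FPKM + 1) and the mean FPKM differed at least 1.5-fold. By the same rule 3.45% of all 43172 tested loci, and 7.74% of the 17960 annotated ones, were called higher in P7, and 0.371% and 0.401% lower. The difference on the log2 scale, P7 minus P1, was positive for 8 members and negative for 2. It was positive for 12147 of the tested annotated loci and negative for 5813. The median was 0.43 over the members, against 0.19 over the tested annotated loci and -0.08 over all tested loci. For 2 members, Arntl and Nr1d1, every P7 heart lay above every P1 heart, which was so for 8.50% of all tested loci and 17.3% of the annotated ones. No member had every P7 heart below every P1 heart, against 4.03% of all tested loci and 2.69% of the annotated ones. The count of 2 was 4 without P1 replicate 4, where Cry2 and Dbp were called as well, 1 without P1 replicate 3, and 0 when P1 replicate 2 was left out, or when P7 replicate 1 or 3 was.

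**Figure D1:**
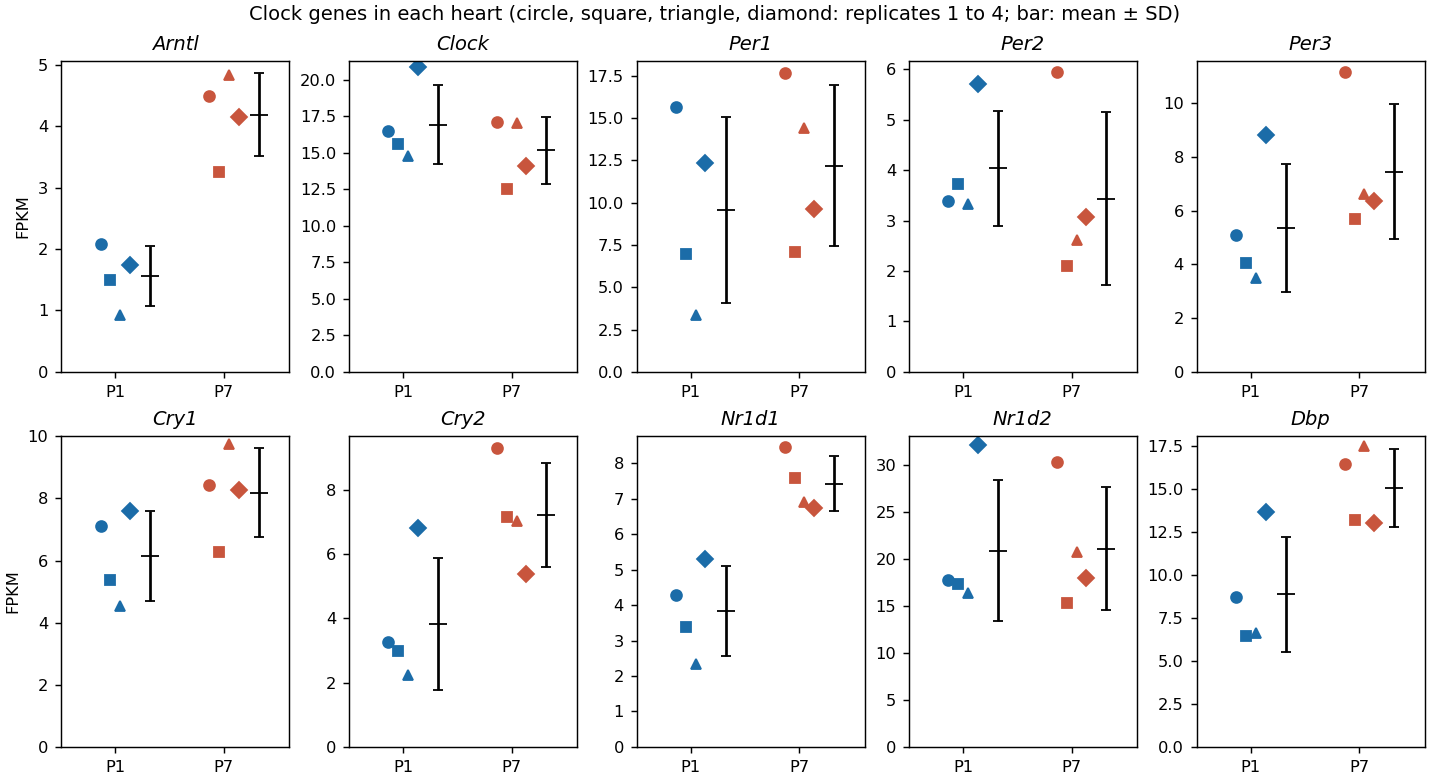
FPKM of each of the 10 clock genes in the 4 P1 and 4 P7 hearts, 1 point a heart, with the mean and SD of each age. The P7 points of Arntl (3.26 to 4.84) and Nr1d1 (6.73 to 8.46) all lie above their P1 points, and the points of the other 8 genes overlap between the ages.

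Arntl, whose product is the partner that the activating complex cannot do without, was the member with the largest difference. The gene lies at chr7:113207465-113314126 on the plus strand of GRCm38. Its level was 2.08, 1.49, 0.929 and 1.74 FPKM in P1 replicates 1 to 4 and 4.49, 3.26, 4.84 and 4.15 FPKM in P7 replicates 1 to 4. Each P7 heart was above each P1 heart, and the mean went from 1.56 ± 0.486 FPKM (SD, n = 4) to 4.18 ± 0.678 FPKM (SD, n = 4), a ratio of 2.68. On log2(FPKM + 1) the difference was 1.03 (SE 0.20, limma adjusted p = 0.0201). With hearts left out in turn the difference stayed between 0.90 and 1.13, but the adjusted p passed the threshold no longer when P1 replicate 2 was left out (0.0755), nor when P7 replicate 1 (0.0652) or 3 (0.0678) was. Its exons share 33 of 7523 bases with the opposite-strand gene Gm45355, for which no locus was listed.

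Clock, whose product is the other partner in the activating complex, lies at chr5:76209868-76304792 on the minus strand. Its level was 16.5, 15.6, 14.8 and 20.9 FPKM in the P1 hearts and 17.1, 12.5, 17.0 and 14.1 FPKM in the P7 hearts. The ages overlapped, and the means were 16.9 ± 2.71 and 15.2 ± 2.28 FPKM (SD, n = 4 each), with a log2 difference of -0.15 (SE 0.19, limma adjusted p = 0.641). The value depended on how the hearts were scaled. After division by the median-ratio factor each P7 heart (13.3 to 14.5) lay below each P1 heart (17.3 to 18.5), with a log2 difference of -0.38 (SE 0.09, limma adjusted p = 0.0419) and a fold below the 1.5 needed for a call. With correction for GC content the difference was 0.13, and with both steps -0.09. Npas2, the paralog of Clock that can replace it in the complex, was 3.75 ± 0.342 FPKM in P1 and 5.84 ± 0.523 FPKM in P7 (SD, n = 4 each), without overlap, and its log2 difference of 0.53 (SE 0.17, limma adjusted p = 0.112) missed the threshold.

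Nr1d1, the repressor of Arntl in the second loop, was the other member called. The gene lies at chr11:98767932-98775333 on the minus strand. Its level was 4.28, 3.40, 2.35 and 5.32 FPKM in the P1 hearts and 8.46, 7.59, 6.91 and 6.73 FPKM in the P7 hearts. The lowest P7 heart was above the highest P1 heart, and the means were 3.84 ± 1.26 and 7.43 ± 0.783 FPKM (SD, n = 4 each), a ratio of 1.94. The log2 difference was 0.84 (SE 0.21, limma adjusted p = 0.0496), which sat at the threshold. The call held in 6 of 20 alternative settings, with adjusted p from 0.0137 to 0.368. Among the fits that left a heart out, only the one without P1 replicate 4 kept it. The exons of Nr1d1 share 263 of their 3077 bases (8.55%) with Thra, the gene of thyroid hormone receptor alpha on the opposite strand. Thra itself rose from 32.0 ± 11.2 to 83.1 ± 9.75 FPKM (SD, n = 4 each; log2 difference 1.41, limma adjusted p = 0.0145). The library kit marks strand, but use of strand in the counting is not given in the sources used here, so fragments from the shared bases cannot be assigned to either gene.

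Nr1d2, the second REV-ERB gene, did not follow Nr1d1. It lies at chr14:18204054-18239127 on the minus strand and was the most abundant member per length in each of the 8 hearts. Its level was 17.8, 17.3, 16.4 and 32.2 FPKM in the P1 hearts and 30.4, 15.3, 20.8 and 18.0 FPKM in the P7 hearts. A single heart of each age, P1 replicate 4 and P7 replicate 1, stood above the rest, while the other hearts lay between 15.3 and 20.8. The means were 20.9 ± 7.52 and 21.1 ± 6.58 FPKM (SD, n = 4 each), with a log2 difference of 0.02 (SE 0.26, limma adjusted p = 0.962). Without P1 replicate 4 it was 0.24, and without P7 replicate 1 it was -0.16. The difference between the responses of Nr1d1 and Nr1d2 was not itself tested.

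Dbp, the D-box activator and the most direct output of the loop, lies at chr7:45705088-45710203 on the plus strand. Its level was 8.75, 6.49, 6.63 and 13.7 FPKM in the P1 hearts and 16.5, 13.2, 17.5 and 13.0 FPKM in the P7 hearts. P1 replicate 4 reached into the P7 range, and the other P1 hearts were below it. After median-ratio scaling each P7 heart (12.3 to 14.0) lay above each P1 heart (7.62 to 11.8). The means were 8.88 ± 3.35 and 15.1 ± 2.27 FPKM (SD, n = 4 each), a ratio of 1.70, and the log2 difference of 0.75 (SE 0.23, limma adjusted p = 0.105) missed the threshold. Without P1 replicate 4 the difference was 0.95 (limma adjusted p = 0.0129) and Dbp was called. Of its 2993 exonic bases 539 (18.0%) are shared with Sphk2, a sphingosine kinase gene on the opposite strand, which went from 3.64 ± 0.740 to 6.85 ± 0.764 FPKM (SD, n = 4 each; limma adjusted p = 0.0402).

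The Period genes, which encode the repressors that set the pace of the loop, gave no call. Per1 (chr11:69095217-69109960, plus strand) had 15.7, 6.97, 3.35 and 12.4 FPKM in the P1 hearts and 17.7, 7.06, 14.4 and 9.65 FPKM in the P7 hearts. It ranged from lowest to highest 4.68-fold within P1 alone, the widest of the members. Its means of 9.59 ± 5.50 and 12.2 ± 4.75 FPKM (SD, n = 4 each) differed by 0.42 on the log2 scale (SE 0.39, limma adjusted p = 0.531), and with GC correction by -0.01. Per2 (chr1:91415982-91459324, minus strand) had 3.39, 3.73, 3.32 and 5.72 FPKM in P1 and 5.96, 2.10, 2.62 and 3.08 FPKM in P7. Again P1 replicate 4 and P7 replicate 1 were the high hearts, and the other P7 hearts lay below each P1 heart. The means were 4.04 ± 1.13 and 3.44 ± 1.72 FPKM (SD, n = 4 each), and the log2 difference was -0.23 (SE 0.26, limma adjusted p = 0.601), negative in all 20 alternatives and called in 0 of them. Per3 (chr4:151003652-151044665, minus strand), the paralog least needed for rhythm, had 5.09, 4.04, 3.48 and 8.80 FPKM in P1 and 11.2, 5.68, 6.62 and 6.35 FPKM in P7. The same pair of hearts was highest, and the means of 5.36 ± 2.39 and 7.45 ± 2.50 FPKM (SD, n = 4 each) differed by 0.44 (SE 0.27, limma adjusted p = 0.390).

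The cryptochromes, the strongest repressors of the BMAL1 and CLOCK complex, were higher on average in P7 without a call. Cry1 (chr10:85131700-85185064, minus strand) had 7.12, 5.38, 4.53 and 7.60 FPKM in the P1 hearts and 8.45, 6.27, 9.74 and 8.28 FPKM in the P7 hearts. Only P7 replicate 2 fell within the P1 range. The means were 6.16 ± 1.44 and 8.19 ± 1.43 FPKM (SD, n = 4 each), with a log2 difference of 0.37 (SE 0.21, limma adjusted p = 0.352). Cry2 (chr2:92403646-92434043, minus strand) had 3.26, 2.98, 2.25 and 6.82 FPKM in P1 and 9.30, 7.15, 7.04 and 5.37 FPKM in P7. The ages overlapped only through P1 replicate 4, the highest P1 heart, and P7 replicate 4, the lowest P7 heart. The means were 3.83 ± 2.04 and 7.22 ± 1.61 FPKM (SD, n = 4 each), a ratio of 1.89, and the log2 difference was 0.83 (SE 0.27, limma adjusted p = 0.112). Without P1 replicate 4 it was 1.09 (limma adjusted p = 0.0108) and Cry2 was called. With GC correction the difference was 0.53 (limma adjusted p = 0.318), and with median-ratio scaling added it was 0.33 (0.35). Cry2 shares 295 of 6320 exonic bases (4.67%) with the opposite-strand gene D930015M05Rik, whose log2 difference of 0.42 was not called (SE 0.35, limma adjusted p = 0.502).

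**Figure D2:**
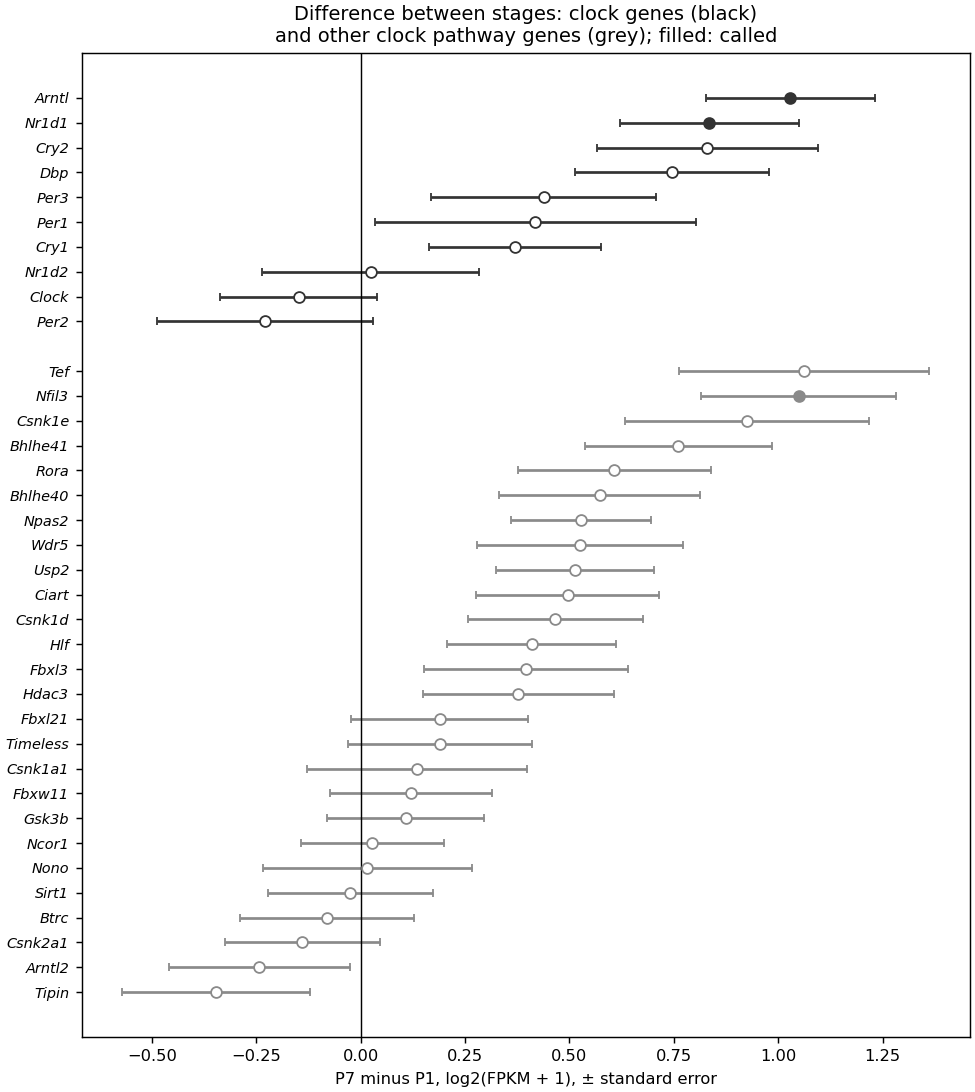
Difference between P7 and P1 on log2(FPKM + 1), with its standard error from limma, for the 10 clock genes (black) and 26 other genes of the clock machinery (grey), each set in order of size, with called genes filled. Among the clock genes Arntl (1.03) and Nr1d1 (0.84) are called, Cry2 (0.83) and Dbp (0.75) lie beside Nr1d1 without passing, and Clock and Per2 lie below 0.

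The order of levels was similar at both ages apart from Per2, which went from rank 7 in P1 to rank 10 in P7. Arntl, Per1, Cry2, Nr1d1 and Dbp each moved to an adjacent rank. In P1 the mean FPKM ran from Nr1d2 and Clock through Per1, Dbp, Cry1, Per3, Per2, Nr1d1 and Cry2 down to Arntl, and in P7 from Nr1d2, Clock and Dbp through Per1, Cry1, Per3, Nr1d1 and Cry2 to Arntl and Per2. Most neighbours in these orders were closer to each other than the larger of their SDs. The gaps wider than that were between Clock and Per1 and between Cry2 and Arntl in P1, and between Cry2 and Arntl in P7. Arntl was the lowest member in each P1 heart and in P7 replicate 1, and Per2 was the lowest in the other P7 hearts.

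Ratios of 2 clock genes within each heart are given as log2((FPKM + 1) / (FPKM + 1)) without a test. The added 1 pulls the ratios of low genes such as Arntl toward 0, so that with 0.1 in its place the difference between ages went from 1.18 to 1.56 for Arntl over Clock and from -1.26 to -1.71 for Per2 over Arntl. Arntl relative to Clock ranged over -3.03 to -2.50 at P1 and -1.72 to -1.55 at P7, a difference of means of 1.18 with no overlap. Npas2 relative to Clock likewise lay higher in each P7 heart, at -1.39 to -1.06 against -2.13 to -1.80. Arntl, the partner of Clock, and Npas2, the paralog of Clock, were thus each closer to the level of Clock at P7, without overlap. The ratios were not recomputed with correction for GC content, which took the log2 difference of Clock from -0.15 to 0.13. With that correction the log2 difference of Arntl (1.13) stayed above those of Clock (0.13), Nr1d2 (0.29) and Per2 (-0.46). The part of GC content in the size of these ratios and in the separation of the ages was not tested. Per2 relative to Arntl ranged over 0.51 to 1.30 at P1 but -0.69 to 0.34 at P7, and Nr1d2 relative to Arntl ranged over 2.61 to 3.60 at P1 but 1.88 to 2.52 at P7, lower in each P7 heart. The remaining 6 ratios overlapped between the ages. Among them Nr1d1 relative to Arntl spanned 0.78 to 1.21 at P1 and 0.44 to 1.01 at P7, Dbp relative to Arntl was 1.59 to 2.42 and 1.44 to 1.74, and Per3 relative to Arntl was 0.98 to 1.84 and 0.38 to 1.15. The other 3 were Per1 relative to Per2, with means that differed by 0.65, Cry2 relative to Cry1 with 0.46, and Nfil3, a D-box repressor, relative to Dbp with 0.30.

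**Figure D3:**
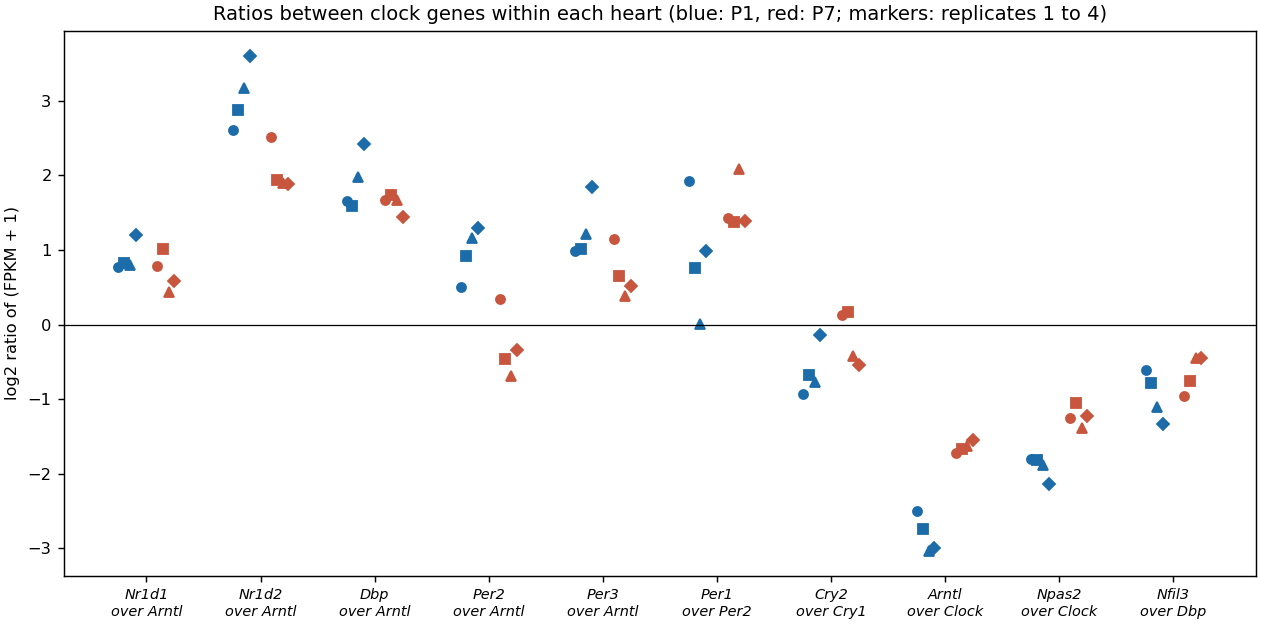
Log2 ratio of FPKM + 1 between pairs of clock genes in each heart, 1 point a heart, P1 and P7 side by side. The ages are separate for Arntl over Clock, Npas2 over Clock, Per2 over Arntl and Nr1d2 over Arntl, and overlap for the 6 other pairs.

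Hearts of 1 age varied among themselves more in Per1 and Per3 than in most genes at both ages. Per2 did so in P7, and in P1 only before scaling. The coefficient of variation of Per1 was 57.3% in P1 and 38.9% in P7, above that of 97.8% and 93.9% of the 12730 annotated loci with at least 1 FPKM in every heart, whose medians were 23.6% and 20.01%. Per3 had 44.7% in P1 and 33.5% in P7, above 91.9% and 89.0% of those loci. Per2 reached 50.1% in P7, above 98.0% of those loci, and 28.1% in P1, above 63.6%. After median-ratio scaling Per1 was at 52.1% in P1 and 30.4% in P7, Per3 at 26.3% and 28.6%, and Per2 at 13.3% and 45.1%. Cry2 had 53.3% in P1 and 22.3% in P7, and Nr1d1 had 33.0% in P1 and 10.6% in P7. Clock was at no more than 16.0% at either age, and after median-ratio scaling at 2.89% and 4.47%, where the median locus was at 16.0% and 14.1%.

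Single hearts gave the highest or lowest value for many members at once. P1 replicate 4 was the highest P1 heart for 8 of 10 members and P1 replicate 3 the lowest for 9. P7 replicate 1 was the highest P7 heart for 7 members and P7 replicate 2 the lowest for 7. After median-ratio scaling these counts were 6, 6, 6 and 5. P1 replicates 4 and 3 had the highest and lowest median-ratio factors of P1, 1.16 and 0.801. P7 replicate 2 had the lowest of P7, 0.942. The share of all loci with the same extremes is not given here. The scaled values kept the pair of high hearts for Nr1d2, at 27.7 in P1 replicate 4 against 18.7 to 20.4 in the other P1 hearts and 25.9 in P7 replicate 1 against 16.3 to 17.1 in the other P7 hearts. Per3 gave 7.59 against 4.35 to 5.35 and 9.50 against 5.21 to 6.02, and Per2 gave 4.93 against 3.56 to 4.37 and 5.07 against 2.06 to 2.92. Clock showed no such pair after scaling. Klf15, a clock and glucocorticoid target of heart muscle, was at 14.9 FPKM in P7 replicate 1, unscaled. The other P7 hearts had at most 7.11 FPKM. In P1 its unscaled values were 6.91 FPKM in replicate 4 and 5.99 FPKM in replicate 1. The median-ratio factors of those hearts were 1.16 and 0.952, so which of them was higher in Klf15 depended on the scaling. Zbtb16, a glucocorticoid-inducible gene, was at 22.8 FPKM in P7 replicate 1 and 2.11 to 4.44 FPKM in the other P7 hearts, while in P1 its highest value was 7.49 FPKM in replicate 1. Of the other listed glucocorticoid-inducible genes, Fkbp5, Tsc22d3, Mt1, Mt2 and Pdk4 were also highest among unscaled P7 hearts in replicate 1. Sgk1 (18.8 against 16.8 to 23.4 FPKM) and Cebpd (15.3 against 12.5 to 18.9 FPKM) were not. Whether hour of sampling or stress hormone level had a part in these heart-to-heart differences was not tested.

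**Figure D4:**
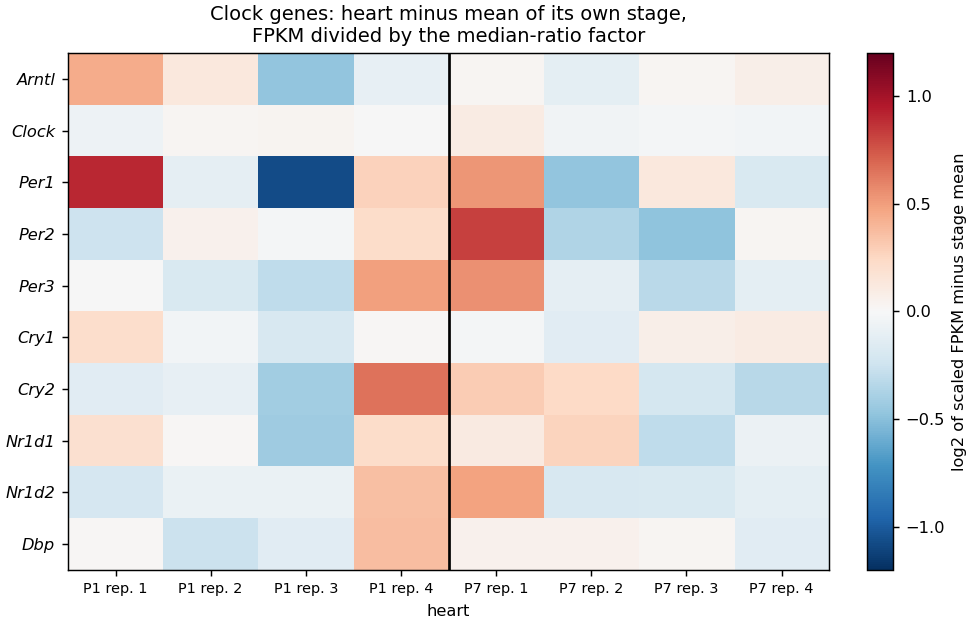
Deviation of each clock gene in each heart from the mean of its age, on a log2 scale after median-ratio scaling, drawn as a colour map with genes as rows and hearts as columns. P1 replicate 4 and P7 replicate 1 both lie above their age for Nr1d2, Per3, Per2, Cry2, Per1, Nr1d1 and Dbp, and Clock stays near 0 in each heart.

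Beyond the 10 members, 27 further genes of the clock machinery are reported and 26 were expressed enough to be tested, Rorb staying under 1 FPKM. Of these, 1 rose and 0 fell, beside 7.74% and 0.401% of annotated loci. In this list 21 differences were positive and 5 negative, and the median was 0.39. Among the 17960 tested annotated loci 12147 were positive and 5813 negative, with a median of 0.19. Nfil3, the D-box repressor, had 5.41, 3.35, 2.56 and 4.84 FPKM in P1 and 8.04, 7.42, 12.6 and 9.28 FPKM in P7. The ages did not overlap, and the log2 difference was 1.05 (SE 0.23, limma adjusted p = 0.0305). The call was lost without P1 replicate 2 or 3 and without P7 replicate 1, 3 or 4, and also with GC correction or with no filter on low values. Rora, the gene of the RORE activator ROR alpha, was 6.68 ± 1.44 FPKM in P1 and 10.9 ± 3.84 FPKM in P7 (SD, n = 4 each; limma adjusted p = 0.184).

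In 6 of the 26 genes every P7 heart lay above every P1 heart, and in 0 below, where 17.3% of annotated loci were above and 2.69% below. Besides Nfil3 and Npas2 these were Csnk1e, a kinase of the PER proteins (log2 difference 0.93, limma adjusted p = 0.109), Bhlhe41, an E-box repressor (0.76, 0.0856), Hlf, a relative of Dbp (0.41), and Usp2, a deubiquitinase (0.51, 0.169), none of which passed. Tef, the third relative of Dbp, had a log2 difference of 1.06 (SE 0.30, limma adjusted p = 0.0732) with overlapping ages. The most abundant genes of the list were near 0, with log2 differences of 0.14 for the kinase gene Csnk1a1, 0.02 for Nono, whose locus carries the name of Itgb1bp2 too, and -0.14 for Csnk2a1.

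A list of 14 genes that the clock is known to drive in heart or other tissues gave 5 higher in P7 and 0 lower, beside 7.74% and 0.401% of annotated loci, with a median log2 difference of 0.53. The 5 became 3 with GC correction and 2 without P1 replicate 2 or without P7 replicate 1. Kcnip2, the potassium channel subunit whose rhythm follows KLF15, rose from 23.4 ± 3.57 to 61.0 ± 14.3 FPKM (SD, n = 4 each; log2 difference 1.33, SE 0.21, limma adjusted p = 0.00953). Pnpla2, the gene of adipose triglyceride lipase, rose by 1.38 (limma adjusted p = 0.0133), Ucp3, a mitochondrial carrier, by 1.45 (0.0185), Pdk4, the kinase that restrains pyruvate oxidation, by 1.26 (0.0271), and Cdkn1a, the inhibitor p21 of the cell cycle, by 0.88 (0.0455). Tspo, an outer mitochondrial membrane protein, missed the threshold at 0.97 (0.0518), and Bdh1, an enzyme of ketone bodies, was lower in each P7 heart, at 2.19 ± 0.595 against 0.831 ± 0.405 FPKM (SD, n = 4 each; log2 difference -0.81, limma adjusted p = 0.0754). Wee1, a kinase gene with E-boxes that follows the clock closely in liver, differed by 0.03 and Nampt, of the NAD salvage route, by 0.05. Ppargc1a and Pik3r1, the most abundant of the uncalled genes, differed by 0.16 and 0.06. These genes answer to the metabolic and hormonal state of the heart as well as to the clock, and the sources of their change were not separated here.

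Signals that act on Per1 outside the loop were measured beside it. Of 8 tested immediate early genes 3 were higher in P7 and 0 lower, beside 7.74% and 0.401% of annotated loci. The 3 were Jun (9.82 ± 2.48 to 29.6 ± 5.65 FPKM, SD, n = 4 each; log2 difference 1.51, limma adjusted p = 0.00615), Dusp1, a phosphatase gene (0.95, 0.0366), and Junb (0.87, 0.0431). Ier2 had 0.76 (0.0594), Egr1 0.35 (0.489) and Nr4a1 0.41 (0.386). Of 8 glucocorticoid-inducible genes only Pdk4 was called higher and 0 lower, beside the same shares of annotated loci. The most abundant others were the metallothionein genes Mt1 (0.16, limma adjusted p = 0.693) and Mt2 (0.56, 0.404), and Tsc22d3, the gene of GILZ, at 0.82 (0.0517). The median log2 differences of these lists were 0.82 and 0.52, beside 0.19 for annotated loci. With GC correction the immediate early median was 0.36 (0.22 for annotated loci) and 1 of the 3 calls, that of Jun, was kept, and with median-ratio scaling added the median was 0.14 (0.03 for annotated loci). Their part in the values of Per1 was not tested.

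Among the genes most like Dbp over the 8 hearts, by Pearson's r on log2(FPKM + 1), were Leng8 (0.999) and Slc41a1 (0.995), and those most like Arntl were Med15 (0.997), Klf4 (0.995) and Vps72 (0.994). These values are a description over 8 hearts that share the split by age and the scaling of each library. Of the 10695 loci compared, 2014 had an r above 0.9 with Dbp, and 1567 of 10696 had one with Arntl, so that the likeness was not particular to the named genes. None of the named genes was a clock gene.

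Removing the dependence of each heart on GC content lowered the differences of the members with GC-rich transcripts and raised those of the members poor in GC. Dbp, with 61.6% GC in its longest transcript, went from a log2 difference of 0.75 to 0.28 (limma adjusted p = 0.520), Per1 (59.4%) from 0.42 to -0.01, Nr1d1 (56.8%) from 0.84 to 0.48 (0.259) and Cry2 (55.6%) from 0.83 to 0.53 (0.318). Arntl, at 48.2% near the median of 49.2% over loci, went from 1.03 to 1.13 and was still called (0.0263). Clock (40.9%) and Nr1d2 (41.8%), the members lowest in GC, moved upward from -0.15 to 0.13 and from 0.02 to 0.29. With this correction 0.991% of all tested loci were called higher and 0.158% lower, so that the number of calls fell over the whole table and not in the clock genes alone. The correction changed only loci with a known transcript GC content, 85.9% of the tested annotated loci, and left unannotated loci as they were. Median-ratio scaling shifted the median of annotated loci by -0.18 and that of the members by -0.21, to 0.22, and kept the calls of Arntl (0.86, limma adjusted p = 0.0117) and Nr1d1 (0.64, 0.0409). It turned Nr1d2 to -0.21 and left Dbp at 0.52 (0.0488) and Cry2 at 0.64 (0.0982), each uncalled. Under that scaling 3.56% of tested loci were called higher and 2.27% lower.

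**Figure D5:**
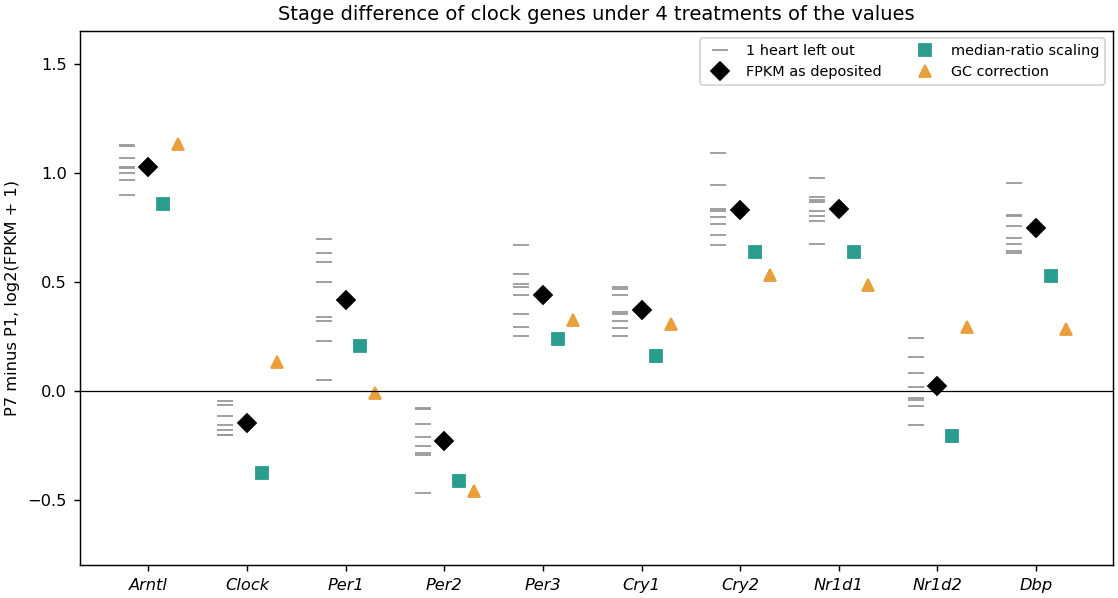
Difference of each clock gene between P7 and P1 on log2(FPKM + 1), from the values as deposited (diamonds), with each heart left out in turn (dashes), after median-ratio scaling (squares) and after GC correction (triangles). Arntl stays between 0.86 and 1.13 in each, while GC correction takes Dbp from 0.75 to 0.28 and Nr1d1 from 0.84 to 0.48.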

How the data were processed

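Libraries were made from ribodepleted total RNA of 8 single hearts (ScriptSeq v2 kit). The authors deposited 1 table of FPKM per heart; their sequencing provider had aligned paired-end reads to GRCm38 with Ensembl release 70. The aligner and any use of strand are not given in the sources used here. The files hold no counts, so exact depth is unknown. Each gene was matched by symbol, or by a RefSeq synonym, to its locus of highest mean; gene positions, transcript GC content and exon overlaps were taken from GENCODE M21. Promoters came from the RefSeq table, which matched 9 of 10 members.

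Loci that reached 1 FPKM in any heart were tested with limma 3.58.1 (R 4.3.3, lmFit and eBayes with trend) on log2(FPKM + 1), with Benjamini-Hochberg adjustment over 43172 loci; the pseudocount of 1 understates changes of low genes. GC content was corrected by a lowess fit (span 0.3) of the deviations of each heart, only at loci with a known transcript GC content. The fit was tested on simulated data. The members and lists were chosen with earlier results of these data known. All members, the called genes of each other list and its 3 most abundant others, genes sharing exons with a member, and the 3 loci most like Arntl and Dbp were named, except for some items that are not reported here; further genes were named after their values were seen.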

Additional observations from a re-analysis of the deposited data

Results flagged for a closer look

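In 2 of the 20 sets of 4 hearts (10 members at 2 ages) 1 heart stood far from the other 3 by Dixon's criterion, where chance gives about 1 in 20. The sets share the scaling of each heart and are not independent. Both flagged values were of P1 replicate 4. For Nr1d2 it had 32.2 FPKM against 16.4 to 17.8 FPKM, a gap of 0.907 of the range. For Per2 it had 5.72 FPKM against 3.32 to 3.73 FPKM, a gap of 0.831 of the range. These values were unscaled, and this heart had the highest median-ratio factor of P1, 1.16. Divided by the factor, it had 27.7 against 18.7 to 20.4 for Nr1d2 and 4.93 against 3.56 to 4.37 for Per2. The criterion was not applied to the scaled values of this heart. Without that heart the log2 differences, P7 minus P1, were 0.24 for Nr1d2 and -0.08 for Per2, and neither was called.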

How the results depend on the processing

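Of the 10 clock genes, 2 were called higher. The count was 1 (Arntl) with pseudocount 0.1, no filter on low values, eBayes without trend, GC correction, and GC correction with median-ratio scaling (an alternative chosen after seeing the data), 4 with sample quality weights, and 0 to 4 with hearts left out in turn; 0 were called lower in any setting. The replicate numbers did not pair the hearts (correlations of same-numbered deviations -0.28 to 0.22 over 4 pairs). With the replicate block the count was 1, also with GC correction, and Nr1d1 had adjusted p = 0.0703. Arntl ranged from 0.90 to 1.13 with hearts left out; requiring 1 FPKM in every heart gave it no value, since P1 replicate 3 had less. Nr1d1 lost its call with GC correction (0.48, also with the replicate block), GC correction and median-ratio scaling (0.28), pseudocount 0.1 (0.99), no filter or no trend (0.84 each), and ranged from 0.67 to 0.98 with hearts left out. Cry2 gained one with 1 FPKM in every heart (0.83) and quality weights (0.89), with 0.67 to 1.09 when hearts were left out, and Dbp with the same settings (0.75 and 0.86; 0.63 to 0.95). Signs turned for Clock with GC correction (0.13, with or without the replicate block), for Per1 with GC correction (-0.012, with or without the block) and with median-ratio scaling added (-0.23), and for Nr1d2 with median-ratio scaling (-0.21), quantile normalization (-0.24) and hearts left out (-0.16 to 0.24). Other clock genes called higher (1) were 4 with 1 FPKM in every heart or quality weights, 2 with median-ratio scaling, 0 with no filter and with each GC correction (alone, with scaling, with the block), and 0 to 3 with hearts left out; 1 (Tipin) was lower with quantile normalization. Clock-driven genes (5) were 3 with GC correction, GC correction with block, no filter or quantile normalization, and 2 to 4 with hearts left out; 1 (Bdh1) was lower with median-ratio scaling, with or without GC correction. Immediate early genes (3) were 5 with 1 FPKM in every heart, 1 with no filter, no trend, quantile normalization or any GC correction, and 1 to 3 with hearts left out. Glucocorticoid-inducible genes (1) were 3 with 1 FPKM in every heart, 2 with pseudocount 0.1 or quality weights, 0 with no filter or quantile normalization, and 0 to 2 with hearts left out; 1 (Fkbp5) was lower with median-ratio scaling, with or without GC correction. With pseudocount 0.1 the log2 ratio of Per2 over Arntl differed by -1.71 and that of Arntl over Clock by 1.56. A fit without a heart rests on fewer samples; the other causes were not tested.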
